A study of Mus musculus with 3 samples.

Results

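Cytosolic ribosomal protein genes were followed in kidney rudiments of Fgfrl1-/- and wildtype mice. Members were chosen by name: all probes, other than control spots, whose gene name in the scanner files is Rpl or Rps followed by a number and at most one of the letters a, x or y, or is Rplp0, Rplp1 or Rplp2. The rule found 76 genes, 46 of the large and 30 of the small subunit, among 27745 gene names, and 127 of the 41174 probes. The rule uses no measured value. The Fgfrl1-/- group consisted of 3 RNA pools of kidney rudiments from C57BL/6 embryos at E12.5 that lack functional Fgfrl1, a receptor of the fibroblast growth factor family. The wildtype group consisted of 3 pools from normal littermates of the same age, and according to the labels 6 to 9 rudiments went into a pool. Each of 3 arrays carried 1 Fgfrl1-/- pool labelled with Cy3 and 1 wildtype pool labelled with Cy5, so that dye and genotype cannot be told apart. Array 1 lay on a slide of its own, whereas arrays 2 and 3 shared the other slide. The pools are whole rudiments, in which fewer cells of a type and less RNA per cell cannot be told apart.

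Ribosomes translate mRNA into protein. The large subunit joins amino acids and the small subunit reads the codons, and most proteins of either subunit are encoded by a single active gene with many processed pseudogenes elsewhere in the genome. The mRNAs of these genes belong to the most abundant transcripts of growing cells, and their transcripts typically start with a run of pyrimidines, the terminal oligopyrimidine tract, through which mTOR signalling controls their translation. Some of the proteins have further roles, in the control of p53, in patterning of the embryo or in inherited anaemia.

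The labels were checked first. Fgfrl1 itself had log2 ratios of Fgfrl1-/- over wildtype of -1.21, -1.51 and -1.83 on arrays 1, 2 and 3 (mean -1.52, SD 0.31, n = 3; limma, adjusted p = 0.029). Calls, at an adjusted p below 0.05 over all gene names, numbered 147 lower and 126 higher. Of the marker genes of kidney cell types, the 7 of the cap mesenchyme had a median of -0.11, with 6 below 0 and 1 called lower (Cited1, -0.78). The 7 of the ureteric epithelium had a median of 0.34, with 4 above 0, although the 1 called gene, Wnt11, was lower (-0.76). The 5 of the stroma had a median of 0.47, with 4 above 0 and 1 called higher (Pdgfra, 1.02). All 4 macrophage markers lay above 0 (median 0.53), with none called. The 4 endothelial markers had a median of -0.0049 and the 5 erythroid markers one of -0.05. The part of cell composition in the ratios of the ribosomal protein genes was not tested.

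The 76 genes were detected throughout. On all 3 arrays and in either channel the flag for a signal well above background was set for each of them. No spot of theirs was saturated and no spot carried an outlier flag. The median raw signal over the 76 genes was 48040, 45512 and 65764 units in the Fgfrl1-/- channel of arrays 1, 2 and 3, against 50091, 126339 and 110187 in the wildtype channel. The dimmest was Rpl21, chosen after its values were seen, at 2287, 267 and 313 units in the Fgfrl1-/- channel and 2154, 623 and 494 in the wildtype channel. The median local background of the members was 19 to 29 units in the Fgfrl1-/- channel and 52 to 60 in the wildtype channel. For many of the bright spots the scanner software took the signal from a scan at low gain and scaled it up. This applied to 79, 79 and 85 of the 136 spots of these genes in the Fgfrl1-/- channel and to 81, 105 and 101 in the wildtype channel.

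After loess normalization of each array, the ribosomal protein genes lay close to 0. The mean log2 ratio of the 76 genes ranged from -0.47 for Rpl29 to 0.28 for Rps18, with a median of -0.03 (large subunit -0.03, small subunit -0.04), beside a median of 0.01 over all 27745 genes. Of the 76 genes, 68 lay within 0.25 of 0, which is 89.5%, compared with 85.4% of all genes. Under loess the 95% interval of each of the 76 genes lay within 1 of 0, and 65 of the intervals lay within 0.5 of 0. A change of at least 2-fold was thus outside every interval, but this holds for the loess scaling only. In this scaling 46 genes were below 0 and 30 above. With median centring in place of loess, however, all 76 lay below 0, with means down to -0.97 (Rpl12), as described further on.

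No member was called at an adjusted p below 0.05, in either direction (limma; over all genes 0.984% were called, 0.53% lower and 0.454% higher). The lowest adjusted p was 0.066. At an unadjusted p below 0.05, 10 of the 76 genes were found (13.2%), 8 lower and 2 higher, whereas 16.5% of all genes passed this threshold, 7.93% lower and 8.58% higher. Of these 10 genes, 9 belonged to the large subunit and 1, Rps6, to the small subunit. The 2 higher genes were 2.63% of the members, below the share over all genes. For both directions together, the share was 19.6% in the large subunit and 3.33% in the small subunit. The absence of calls depended on the scaling, on the gene names and on array 1. With median centring 10 members were called lower (13.2%), beside 1.2% of all genes. With RefSeq gene names 1 member was called lower, Rpl29 (1.32%), beside 1.7% of all genes. Without array 1, 7 members were called lower (Rpl29, Rpl12, Rpl14, Rpl38, Rplp0, Rps28 and Rps14) and 1 higher (Rpl9), while 18.3% of all genes were called in that fit of the 2 arrays that share a slide. Without array 2 or without array 3, 0 members were called, but almost no gene was called in these fits (0.0108% and 0% of all genes).

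**Figure D1:**
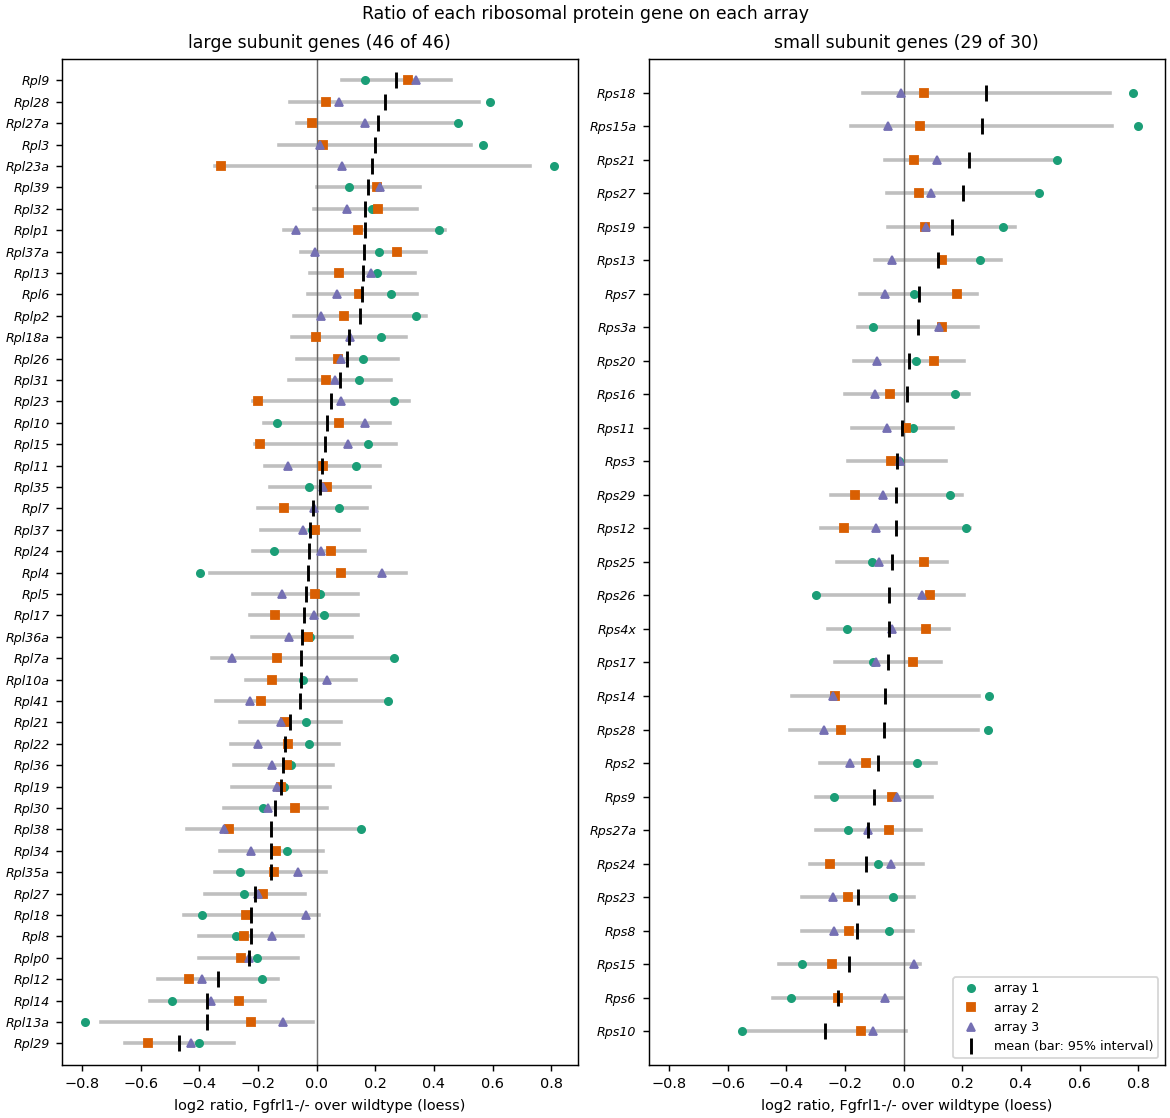
Log2 ratio of Fgfrl1-/- over wildtype (x axis, loess) of each of the 46 large subunit genes (left) and of 29 of the 30 small subunit genes (right). Green circles, orange squares and violet triangles are arrays 1, 2 and 3, black ticks their mean and grey bars its 95% interval from limma; the means run from -0.47 (Rpl29) to 0.28 (Rps18), and the points farthest from 0 (0.81 for Rpl23a and -0.79 for Rpl13a) are from array 1.

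Rpl29, a large subunit protein that also binds heparin, had the lowest ratio. Its raw signal was 13278, 10452 and 14978 units in the Fgfrl1-/- channel and 18080, 42091 and 32727 in the wildtype channel of arrays 1, 2 and 3. After normalization the log2 ratio was -0.40, -0.58 and -0.43 (mean -0.47, SD 0.09, n = 3), or 0.72 of the wildtype level with a 95% interval from 0.63 to 0.82 (limma, unadjusted p = 0.0011, adjusted p = 0.066). It was below 0 on each array, yet it missed the threshold after adjustment over all genes. It was called in 3 of the 18 alternative analyses, and the adjusted p ranged from 0.0016 to 0.52 among them. Rpl29 is the member with the most probes, 4 of 60 bases each, and they are shown because their ratios allow a comparison under one gene name. The files place them on mm8 at chr9:106287739-106288421, chr9:106289206-106289265, chr9:106289179-106289238 and chr9:106288414-106288473, all on the plus strand. In the first, which stands for the gene, capitals mark the first ATG that opens a reading frame to the end of the probe. In probes 2 and 3, which overlap by 33 bases, capitals mark the 3 bases at which the overlapping parts differ:
Rpl29 probe 1: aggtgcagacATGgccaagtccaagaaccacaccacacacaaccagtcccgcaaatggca
Rpl29 probe 2: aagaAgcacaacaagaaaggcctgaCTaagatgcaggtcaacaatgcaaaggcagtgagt
Rpl29 probe 3: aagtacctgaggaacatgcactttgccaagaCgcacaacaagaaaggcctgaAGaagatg
Rpl29 probe 4: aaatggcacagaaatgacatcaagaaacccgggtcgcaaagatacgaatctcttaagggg

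The 4 probes had mean log2 ratios of -0.47, -0.51, -0.33 and -0.17. Probes 1, 2 and 3 were below 0 on all 3 arrays. Probe 4 was at 0.09 on array 1 and at -0.39 and -0.19 on arrays 2 and 3. The direction was therefore shared by the means of all 4 probes, while the size differed between them by up to 0.35. Probes 2 and 3 differ at 3 of the 33 bases placed at the same positions, so both cannot match that sequence in full. Whether each probe measures Rpl29 alone was not tested.

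Next to Rpl29 the lowest large subunit genes were Rpl13a, Rpl14 and Rpl12. Rpl14 had ratios of -0.49, -0.27 and -0.36 (mean -0.37, SD 0.11, adjusted p = 0.098). Rpl12, a protein at the base of the ribosomal stalk, had ratios of -0.19, -0.43 and -0.39 (mean -0.34, SD 0.13, adjusted p = 0.12). Rpl13a, also known as a translational silencer in inflammatory cells, had ratios of -0.79, -0.22 and -0.11 (mean -0.38, SD 0.36, adjusted p = 0.29). The SDs of Rpl14 and Rpl12 were near the median SD of the members (0.11), whereas the value of Rpl13a came largely from array 1. Rpl27 (-0.21) and Rpl8 (-0.23), chosen after their values were seen because they passed the unadjusted threshold, were below 0 on all 3 arrays with SDs of 0.03 and 0.07.

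At the other end of the large subunit stood Rpl9, Rpl28, Rpl27a and Rpl3. Rpl9 had ratios of 0.17, 0.31 and 0.34 (mean 0.27, SD 0.09, n = 3), or 1.21 times the wildtype level with a 95% interval from 1.06 to 1.37 (limma, unadjusted p = 0.013, adjusted p = 0.16). Its probe, shown with that of Rps9 as a pair of genes measured by a single probe each, lies on mm8 within chr5:65667780-65668230 on the minus strand, and that of Rps9 at chr7:3307742-3307801 on the plus strand:
Rpl9: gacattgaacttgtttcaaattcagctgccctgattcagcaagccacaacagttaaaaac
Rps9: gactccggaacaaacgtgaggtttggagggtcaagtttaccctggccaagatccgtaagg

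The other 3 high genes owed their means to array 1. Rpl28 had ratios of 0.59, 0.03 and 0.08, and Rpl3, a protein near the peptidyl transferase centre, had ratios of 0.57, 0.02 and 0.01. Rpl27a was at 0.48, -0.02 and 0.17. Their SDs of 0.25 to 0.32 were as large as or larger than their means of 0.20 to 0.23, and their adjusted p lay between 0.44 and 0.54. Rpl39 (0.11, 0.20 and 0.21), chosen after its values were seen, was above 0 on each array and passed the unadjusted threshold only (adjusted p = 0.30).

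In the small subunit the lowest values described here were those of Rps10, Rps6 and Rps15, with means from -0.27 to -0.19. Rps10 had ratios of -0.55, -0.15 and -0.11 (SD 0.25, adjusted p = 0.31). Rps6, whose phosphorylation is the classic readout of mTOR signalling, had ratios of -0.39, -0.23 and -0.06 (mean -0.23, SD 0.16, unadjusted p = 0.046, adjusted p = 0.29). Both were below 0 on all arrays, and in both array 1 lay farthest from 0. Rps15 was below 0 on arrays 1 and 2 (-0.35 and -0.24) and at 0.03 on array 3.

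The highest small subunit genes were Rps18, Rps15a, Rps21 and Rps27. Rps18 had ratios of 0.78, 0.07 and -0.01 (mean 0.28, SD 0.44, adjusted p = 0.50). The other probes of Rps18 had means of 0.0087 and 0.04, and those of Rps21 had means of 0.08 and 0.01. Rps15a had ratios of 0.80, 0.05 and -0.05 (mean 0.27, SD 0.46, adjusted p = 0.55). Rps21 (0.52, 0.03 and 0.11) and Rps27 (0.46, 0.05 and 0.09) had the same shape, a high value on array 1 and values near 0 on arrays 2 and 3. In all 4 genes the mean was smaller than the SD between the arrays.

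Rps9, which served as control gene of the study, had raw signals of 26131, 28249 and 40032 units in the Fgfrl1-/- channel and 33040, 82430 and 69030 in the wildtype channel. Its normalized log2 ratio was -0.24, -0.04 and -0.02 (mean -0.10, SD 0.12, n = 3), or 0.93 of the wildtype level with a 95% interval from 0.81 to 1.07 (adjusted p = 0.62). With median centring the same probe had a mean of -0.65.

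The proteins of the ribosomal stalk, which recruit the translation factors, did not share a direction. Rplp0, the stem of the stalk, had ratios of -0.20, -0.26 and -0.23 (mean -0.23, SD 0.03, unadjusted p = 0.016, adjusted p = 0.18). Rplp1 had ratios of 0.42, 0.14 and -0.07 (mean 0.16, SD 0.24) and Rplp2 ratios of 0.34, 0.09 and 0.01 (mean 0.15, SD 0.17). The arrays of Rplp0 were thus among the closest of all members, whereas those of Rplp1 spread on both sides of 0.

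Rpl5 and Rpl11, which together with the smallest rRNA of the large subunit bind Mdm2 and thereby stabilise p53, were near 0, with means of -0.04 (95% interval -0.22 to 0.14) and 0.02 (-0.18 to 0.22). Rps27a, made as a fusion with ubiquitin, had ratios of -0.19, -0.05 and -0.12 (mean -0.12). Rpl22, whose loss impairs T cell development, had a mean of -0.11, and Rpl24, the gene of the Belly spot and tail mutation, one of -0.03. A second probe of Rpl22 differed in sign, at -0.11, 0.42 and 0.59 (mean 0.30). Rpl38, required for the patterning of the axial skeleton through Hox mRNA translation, had ratios of 0.15, -0.30 and -0.32 (mean -0.15, SD 0.27). Rps14, a gene linked to an acquired macrocytic anaemia, was alike, at 0.29, -0.23 and -0.24 (mean -0.06, SD 0.31). For both genes arrays 2 and 3 lay together and array 1 on the other side of 0, and both were among the 7 members called lower without array 1 (-0.31 and -0.24). The X-linked genes Rps4x and Rpl10 had means of -0.05 and 0.03. The probe that stands for Rpl10 was the only one of the 76 that the files place on another chromosome (13) than the gene (X). Its second probe, on chromosome X, had a mean of 0.15.

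The different probes of a gene were compared. They lie at different positions and some were designed on other transcripts, and the source of a difference between them was not tested. For 36 of the members, at least 2 probes had this background flag set throughout. The probes of a gene differed by a median of 0.16 between the lowest and the highest mean, by less than 0.25 in 23 genes and by more than 0.5 in Rps19 only. In 17 of the 36 genes the means of all these probes had the same sign, 11 below and 6 above 0. Rps15a, one of the highest genes, had a second probe at -0.12, -0.27 and -0.15, opposite in sign to the mean of the first.

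Rps19, the gene most often mutated in Diamond-Blackfan anaemia, had 3 probes, of which 2 had the flag set throughout. The probe that stands for the gene, designed on a cDNA clone, had ratios of 0.34, 0.07 and 0.08 (mean 0.16, SD 0.15, adjusted p = 0.44). The other, designed on the RefSeq transcript, had ratios of 0.38, -0.94 and -0.63 (mean -0.40, SD 0.69). They lay close together on array 1 but 1.02 and 0.70 apart on arrays 2 and 3, so that no direction can be given for Rps19. On mm8 the RefSeq probe lies within chr7:24593610-24593935 and the clone probe at chr7:24597691-24597750, both on the plus strand. Both are shown for their different positions in the gene, with the first ATG of the reading frame of the RefSeq probe in capitals:
Rps19 RefSeq probe: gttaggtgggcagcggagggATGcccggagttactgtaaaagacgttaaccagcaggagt
Rps19 clone probe: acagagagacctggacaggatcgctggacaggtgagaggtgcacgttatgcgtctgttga

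**Figure D2:**
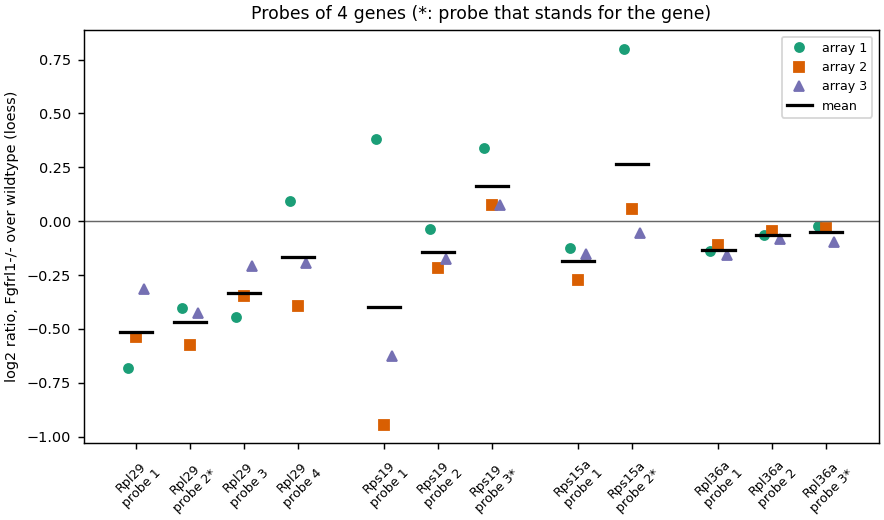
Log2 ratio of Fgfrl1-/- over wildtype (y axis, loess) for each probe of Rpl29, Rps19, Rps15a and Rpl36a, ordered by mean within a gene, with arrays 1, 2 and 3 as green circles, orange squares and violet triangles and the mean as a black line. The 4 means of Rpl29 all lie below 0, those of Rps19 run from -0.40 to 0.16, and those of Rpl36a from -0.13 to -0.05.

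The sign of the members as a whole depended on the scaling of the arrays. Relative to the median of an array, the wildtype channel was the brighter one for these strongly labelled spots. Loess, which removes a trend of the ratio with brightness, raised the ratio of the members by a median of 0.23, 1.06 and 0.49 on arrays 1, 2 and 3. The corresponding shift of all genes was -0.05, 0.05 and 0.02. With median centring alone, the medians of the 76 genes were -0.22, -1.08 and -0.54, and the mean ratio of each of the 76 genes was below 0 (-0.97 to -0.24, median -0.63), while the median of all genes was 0.04. In that scaling 10 members were called lower and 0 higher, beside 1.2% of all genes lower and 0.0577% higher. Since no dyes were swapped, a lower level of these mRNAs and a dye difference at high signal cannot be told apart. Leaving the members out of the loess curve gave a median of -0.04. They are 136 of 43379 spots and the other spots still set the curve, so this cannot separate the dye from the level.

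**Figure D3:**
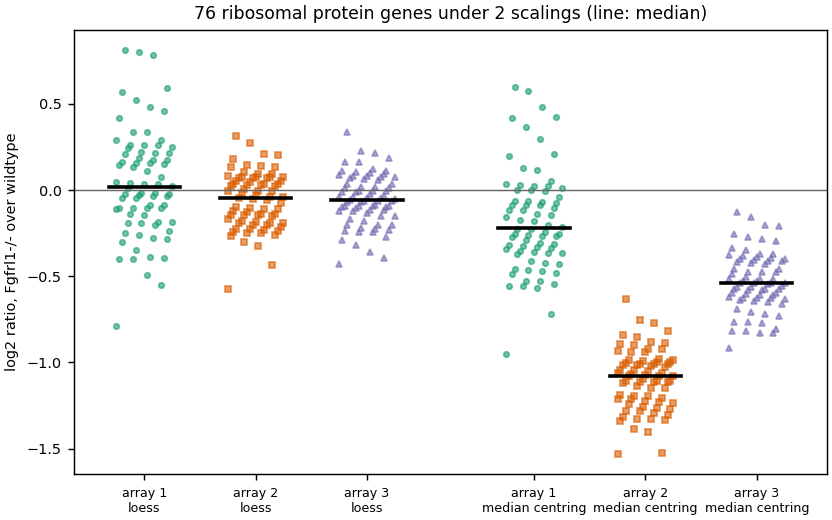
Log2 ratio of Fgfrl1-/- over wildtype (y axis) of the 76 ribosomal protein genes on each array, after loess (left) and after median centring (right); each point is a gene and the black line the median. The medians are 0.02, -0.04 and -0.06 with loess and -0.22, -1.08 and -0.54 with median centring.

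The order of the members was less affected by the scaling than their level. Across the 76 genes, the mean ratios under loess and median centring correlated with Pearson's r of 0.88 and Spearman's rho of 0.89, a description across genes that share the same arrays. Of the 10 lowest genes under loess, 6 were among the 10 lowest under median centring. Relative to the median of the members, Rpl29 lay at -0.43 under loess and at -0.33 under median centring. Rpl9 lay at 0.31 and 0.30. Other low genes depended more on the scaling: Rpl14 lay at -0.34 and -0.10, and Rps15 at -0.15 and 0.04. Rpl12 went the other way, at -0.30 under loess and -0.34 under median centring.

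The arrays differed in the spread of the members. The SD across the 76 genes was 0.31 on array 1, compared with 0.16 and 0.15 on arrays 2 and 3, and their medians were 0.02, -0.04 and -0.06. On array 1, 37 of the 76 genes were below 0, on array 2 there were 45 and on array 3 there were 50. Over the 76 genes, array 1 correlated with arrays 2 and 3 at r = 0.33 and 0.31 (rho = 0.32 and 0.33), whereas arrays 2 and 3, which share a slide, correlated at r = 0.66 (rho = 0.59). Over all genes the values were 0.14, 0.24 and 0.72. Of the 76 genes, 39 had the same sign on all 3 arrays (51.3%), 26 below and 13 above 0, compared with 38.9% of all genes. Here too the members were brighter than all genes, and shares at a like brightness were not counted. Rpl23a, chosen after its values were seen, was the most divergent, at 0.81, -0.33 and 0.09.

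**Figure D4:**
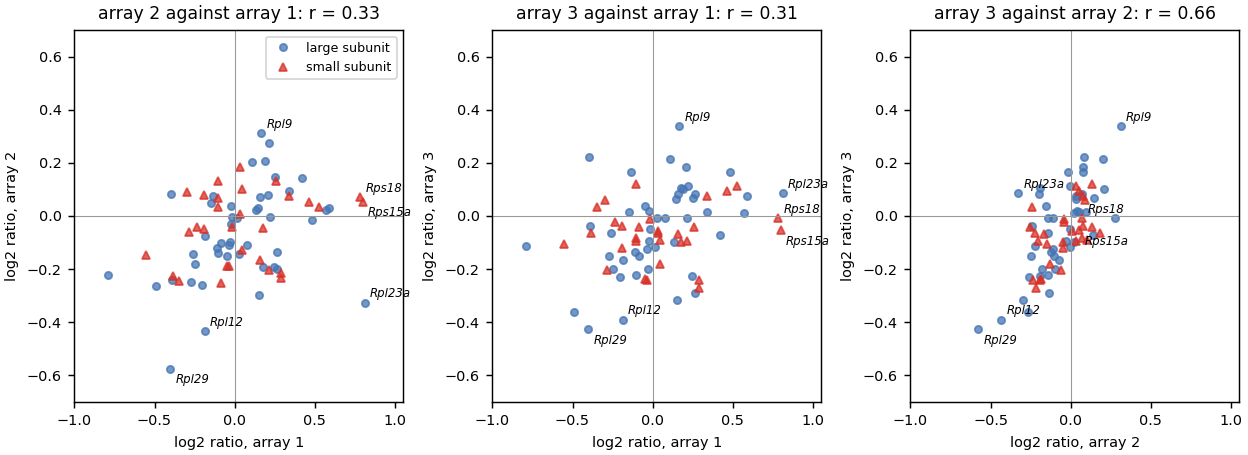
Log2 ratio of Fgfrl1-/- over wildtype (loess) of the 76 genes on one array against another, for arrays 1 and 2, 1 and 3, and 2 and 3; blue circles are large and red triangles small subunit genes. Arrays 2 and 3 follow each other (r = 0.66) more closely than either follows array 1 (r = 0.33 and 0.31), and Rps18, Rps15a and Rpl23a lie at 0.78 to 0.81 on array 1.

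A list of 4 ribosomal protein genes whose names fall outside the rule was examined next. Rpsa, the laminin receptor protein of the small subunit, had ratios of -0.50, -0.51 and -0.44 (mean -0.48, SD 0.04, adjusted p = 0.056). Gnb2l1, the scaffold protein Rack1 of the small subunit, had a mean of -0.27, and Fau, which encodes a small subunit protein fused to a ubiquitin-like domain, one of 0.28. None of the 4 was called, and their median was -0.26. At an unadjusted p below 0.05, 3 were lower and 1 was higher, beside 7.93% lower and 8.58% higher of all genes.

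Of 10 listed paralogs of ribosomal protein genes, 7 were measured, with a median of -0.05, and 1 was called. Rpl36al, an intronless copy of Rpl36a, fell in the Fgfrl1-/- kidneys, with ratios of -0.57, -0.61 and -0.57 (mean -0.58, SD 0.02, adjusted p = 0.039). It was called in 9 of the 18 alternative analyses and below 0 in all 18. Rpl36a itself, measured with 3 probes, had means of -0.13, -0.06 and -0.05 and was not called. The probe of Rpl36al, at chr12:70101711-70101770 on the minus strand of mm8, covers the start of the reading frame, with its first ATG in capitals:
Rpl36al: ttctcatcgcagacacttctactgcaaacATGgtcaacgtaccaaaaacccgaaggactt
Rps27l, a paralog of Rps27 known as a p53 target, had ratios of -0.36, -0.29 and -0.36 (mean -0.34, SD 0.04) but an adjusted p of 0.093. Rpl22l1 (0.06) and Rpl7l1 (-0.20) were not called either.

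Mitochondrial ribosomal proteins and ribosome biogenesis factors had lower medians than the cytosolic ribosomal proteins under loess, but higher medians under median centring (-0.51 and -0.56 against -0.63). The 75 mitochondrial ribosomal protein genes had a median of -0.14 (-0.19, -0.12 and -0.10 on arrays 1, 2 and 3). Of them 62 lay below 0 and 27 were lower at an unadjusted p below 0.05, beside 7.93% of all genes, but 0 were called. Mrpl15 (-0.38, -0.55 and -0.35) and Mrpl16 (-0.39, -0.34 and -0.44) had adjusted p of 0.081 and 0.078. The 41 ribosome biogenesis genes had a median of -0.22 (-0.30, -0.19 and -0.20), with 37 below 0 and 20 lower at an unadjusted p below 0.05, and 1 was called. This was Mycn, a transcription factor that activates genes for ribosome synthesis, which fell by 0.88 on the log2 scale (-0.64, -1.10 and -0.89; SD 0.23, adjusted p = 0.040) and was called in 9 of the 18 alternatives. Gar1, a protein of the rRNA-modifying particles listed as Nola1, was at -0.69 (adjusted p = 0.061). Ubtf, an activator of RNA polymerase I, was on the other side at 0.55 (0.88, 0.48 and 0.29, adjusted p = 0.11).

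The translation factors lay on both sides of 0. Of 31 listed initiation factors 30 were measured, with a median of -0.07, 20 below and 10 above 0, and 0 called. At an unadjusted p below 0.05, 6 were lower and 1 higher, beside 7.93% lower and 8.58% higher of all genes. Eif2s1, a subunit of the factor that brings the initiator tRNA, had ratios of -0.79, -0.52 and -0.40 (adjusted p = 0.074), and the helicase Eif4a2 had ratios of 1.06, 0.55 and 0.63 (adjusted p = 0.065). The 10 elongation factors and associated proteins had a median of -0.04 and 0 calls (2 lower and 1 higher at the unadjusted threshold). Eef2, which moves the ribosome along the mRNA, had ratios of 0.49, 0.68 and 0.38 (mean 0.52, adjusted p = 0.070), and Eef1e1 had ratios of -0.83, -0.57 and -0.52 (mean -0.64, adjusted p = 0.053). With median centring the medians were -0.52 for the initiation factors and -0.58 for the elongation factors, so that these too lay above the cytosolic ribosomal proteins.

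**Figure D5:**
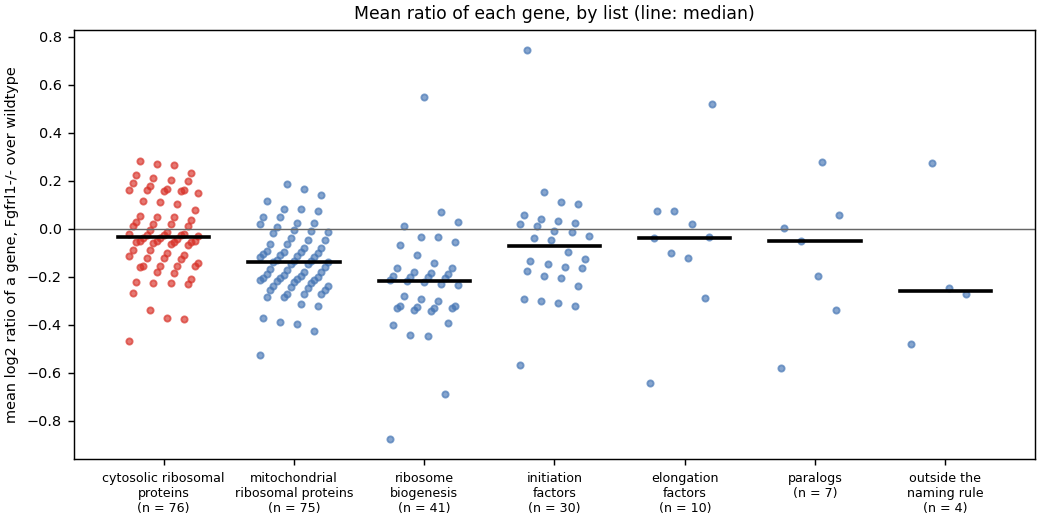
Mean log2 ratio of Fgfrl1-/- over wildtype (y axis, loess) of each gene, for the 76 cytosolic ribosomal protein genes (red) and 6 lists of related genes (blue); each point is a gene and the black line the median. The median is -0.03 for the cytosolic and -0.14 for the mitochondrial ribosomal proteins and -0.22 for ribosome biogenesis; with median centring the order turned, to -0.63, -0.51 and -0.56.

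The start regions of the members were compared, since these genes share sequence features that the naming rule did not use. RefSeq promoter sequences on GRCm38.p6 were found for 56 of the 76 genes. A window of 30 bases around the annotated start, 15 on either side, was searched for a run of at least 8 pyrimidines. Pyrimidines are C or T, here on the strand that reads like the transcript. Such a run was found in 25 of the 56 genes (44.6%), compared with 13.9% of all genes with a promoter. A gene with several annotated starts counted if any of them matched. The letters CTTTC, which can lie within such a run, were found in 28.6% and 4.76%. In the 300 bases from 250 before to 50 after the start, CGGAAG on either strand, a core shared by sites of Ets factors, was found in 69.6% of the members and 18.8% of all genes. A match is a description of the letters only. Windows are shown for members with low, middle and high ratios, with the longest run of pyrimidines in capitals:
Rpl13a: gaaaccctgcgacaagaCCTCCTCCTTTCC
Rpl14: gggcgggCCCTCTCTCTTCTCgctgagcgc
Rps6: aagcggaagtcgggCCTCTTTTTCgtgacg
Rps9: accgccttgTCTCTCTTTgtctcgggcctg
Rpl9: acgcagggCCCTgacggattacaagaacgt
Rps18: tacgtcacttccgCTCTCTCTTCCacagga
They lie at chr7:45128731-45128760 (minus strand), chr9:120571502-120571531 (plus), chr4:86857353-86857382 (minus), chr7:3704026-3704055 (plus), chr5:65391417-65391446 (minus) and chr17:33955651-33955680 (minus). The 25 genes with a long run had a median log2 ratio of -0.05 (-0.38 to 0.28), and the 31 others one of -0.03 (-0.34 to 0.27). The ranges overlapped almost in full.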

How the data were processed

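RNA of 3 Fgfrl1-/- and 3 wildtype pools was measured on 3 Agilent whole mouse genome arrays read in 2 colours. Per the file headers, the authors extracted the spots with Feature Extraction 9.5.3.1 (array 1) and 10.5.1.1 (arrays 2 and 3); the labels give version 10. The deposited scanner files hold the median intensity of each spot and its background, flags, and the log10 ratio of wildtype over Fgfrl1-/-. The authors also deposited a log2 table per probe and array (column medians -0.02, 0 and 0.003). Its sign follows Fgfrl1-/- over wildtype, as found from its correlation over probes with the inverted scanner ratio (r = 0.70, 0.72 and 0.71) and with the ratio used here (r = 0.97, 0.89 and 0.91). The steps behind it and its centring are not given in the sources used here. It was used as an alternative only. The gene names, sequences and mm8 positions came from the file of array 1; probe order was the same in all files.

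Median intensities were corrected with normexp (offset 50) and loess within each array in limma 3.58.1 (R 4.3.3). The 1639 control spots had weight 0, and outlier spots were left out. Spots of a probe were averaged, and each gene name took the values of the probe whose mean log2 signal was highest. The ratio (Fgfrl1-/- over wildtype, log2) of each name entered lmFit and eBayes with an intercept only (2-sided test against 0), which pairs the pools of an array, with Benjamini-Hochberg adjustment over 27745 names. A gene was called at an adjusted p below 0.05. Intervals are 95% intervals from this fit. The pools are separate RNA preparations, and with 3 arrays their number limits the precision of each value; arrays have no count of reads. Dye could not be fitted, since it followed genotype.

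Named genes were the 4 lowest and 4 highest of each subunit, every called member, members with known further roles, the control gene Rps9, members whose probes differed by over 0.5 and genes of the related lists; others are marked. Some genes of the rule and the lists are not reported here by name, though they are in the counts and medians. Members and lists were chosen with earlier results of these data known. The procedure was tested on simulated data. The alternatives were background and offset, scanner ratios, median centring, loess without the members, quantile normalization, dim probes or outlier spots, probe choice, RefSeq names, the eBayes options, a separate-channel fit, a single value per slide, the authors' table and each array left out.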

Additional observations from a re-analysis of the deposited data

How the results depend on the processing

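The count of members called (0 lower, 0 higher) was found again in 15 of 18 alternatives. It was 10 lower with median centring, 1 lower (Rpl29) with RefSeq gene names, under which 19754 genes were tested, and 0 to 7 lower and 0 to 1 higher with each array left out in turn. The upper ends came from leaving out array 1, without which only the arrays of 1 slide remained. Of the 15 alternatives without a member call, several called 0 of all genes. These were an offset of 0, the scanner ratios, a single value per slide and leaving out array 3. Trend and robust variances called 4 of all genes, and leaving out array 2 called 3. Such settings could hardly call a member, so the 15 are not 15 separate checks. The 10 members at an unadjusted p below 0.05 were 62 with median centring and 2 to 17 with each array left out. The share of all genes at this threshold was not counted in these alternatives, so these counts cannot be read as particular to the members. The median of the members was -0.63 with median centring (large subunit -0.56, small subunit -0.64), and that of the small subunit was -0.00539 with the ratios of the scanner software; the other alternatives moved no median of the members beyond its spread between arrays, and the range with an array left out was -0.06 to -0.01 for all members (large subunit -0.06 to -0.0034, small subunit -0.03 to -0.01). The counts over all genes (147 lower, 126 higher) were 0 and 0 with the scanner's own ratios, an offset of 0 in normexp or a single value per slide, 4 and 0 with trend and robust variances, 115 and 81 without background subtraction, 114 and 82 with the mean of a gene's probes, 60 and 33 without dim probes, 60 and 19 in the authors' table, 335 and 389 with RefSeq names, 334 and 16 with median centring, and 0 to 2682 and 0 to 2390 with an array left out. With the channels fitted separately, with no replicate block and the channels of a spot linked by an intraspot correlation of 0.63 instead of the ratio, 0 members were called, the median was -0.03 and 155 genes were lower and 107 higher. Quantile normalization of the mean signal leaves the ratios as they are by construction. Of the 30 named members, 13 changed sign with median centring and 0 to 3 in any of the other alternatives, all without a call. All members were well above background; the number of arrays (3), the scaling and the choice of probe limit the values.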
